A study of Homo sapiens with 6 samples.

Results

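The comparison described here is the CXXC5 knockdown in the MV4-11 leukaemia line, read gene by gene from a pair of arrays. One array held MV4-11 cells transduced with a lentiviral vector for an shRNA against CXXC5 (shRINF), and the other held MV4-11 cells transduced with the same kind of vector for a control sequence (shcontrol). The study made the same pair in UT7-5.3 and in K562 cells, so that 3 human leukaemia lines gave 6 arrays in all, each of total RNA from proliferating cells. No line had a second array of either shRNA, so every MV4-11 difference below compares 2 libraries of RNA, has no replicate error and carries no p-value. How long after transduction the cells were taken, which sequences the shRNAs held and whether cells were selected or cloned are not in the labels.

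Levels are log2 values from RMA, a method that corrects background, brings the arrays to a common distribution and summarises the probes of each feature. A difference is the shRINF level minus the shcontrol level, so that 1 log2 unit is 2-fold and 0.585 is 1.5-fold. Of 67528 features, 23781 carried 1 gene symbol, and 15502 of these were at log2 5 or more on at least 1 MV4-11 array. The brightest feature stood for a gene that had several, which left 14640 of 22411 named genes, among them 12342 protein-coding genes, 679 long non-coding RNAs and 410 microRNA genes. Of the 14640, 14228 were at 5 or more on both arrays, 174 on the shRINF array only and 238 on the shcontrol array only. At the edge of that rule lay 37 genes at 5.00 on their higher array, such as RSAD2 at 4.99 with shRINF and 5.00 with shcontrol, and just outside it 36 features at 4.99, such as VWF at 4.99 on both.

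CXXC5 (RINF) acts in the nucleus, where its CXXC zinc finger binds DNA rich in unmethylated CpG, and it has been linked to Wnt, TGF-beta and retinoid signalling and to myeloid differentiation. MV4-11 was derived from an acute leukaemia with monocytic features and carries a KMT2A (MLL) fusion and an internal tandem duplication of the FLT3 receptor. Myeloid progenitors make the proteases of the primary granules at the promyelocyte stage, whereas maturing monocytes take on chemokine receptors, Fc receptors, lysozyme and MHC class II. Genes of those programmes, of metal binding and of the cell cycle are described in turn below.

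The line's own markers were read first. The macrophage glycoprotein CD68 had levels of 10.08 with shRINF and 9.99 with shcontrol, the co-receptor CD4 8.88 and 8.84, the myeloid master regulator SPI1 (PU.1) 8.12 and 8.20, and the receptor kinase FLT3 9.61 and 9.88. CD14, the lipopolysaccharide co-receptor that marks mature monocytes, lay under the floor at 4.55 and 4.63, as did the stem cell antigen CD34 at 4.30 and 4.32. The arrays thus held some monocytic genes well above the floor and others under it. Of 47 named monocyte and macrophage genes 15 were under it on both arrays. Besides CD14 these included CD163, at 3.57 with shRINF and 3.48 with shcontrol, and MRC1, at 3.31 and 3.26. Markers of other lineages were partly above and partly under the floor. Of 9 named B lymphoid markers 6 were kept, with differences between -0.25 and 0.42. Of 13 T and NK markers 8 were kept (-0.17 to 0.69), and of 11 epithelial and fibroblast markers 7 (-0.06 to 0.41). Of 12 megakaryocytic markers 7 were kept, between -0.44 and 0.11, with a median of -0.12. Of 12 named erythroid markers 7 were kept, with a median difference of -0.09, and the beta-globin gene HBB was at 4.02 with shRINF and 4.15 with shcontrol. The B lymphoid antigen MS4A1 (CD20) was at 3.17 and 3.16, the T-cell genes CD3G and CD2 at 3.70 and 3.71 and at 2.97 and 2.98, and the epithelial adhesion molecule EPCAM at 3.53 and 3.54. Markers that differed more were the neural adhesion molecule NCAM1 (CD56), at 8.63 with shRINF and 7.94 with shcontrol, and the erythroid factor KLF1, at 7.62 and 8.16.

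The targeted transcript had a level of 7.95 with shRINF and 8.58 with shcontrol, a difference of -0.63 that left 64.6% of the control level. CXXC5 stood 90th from the lowest of 14640 differences. In the same line 89 genes therefore had a lower value than the target itself. In the other lines the CXXC5 difference was -0.66 in UT7-5.3 and -0.45 in K562. SMAD7, an inhibitor of TGF-beta signalling that earlier work linked to CXXC5, had levels of 5.72 with shRINF and 5.94 with shcontrol in MV4-11, a difference of -0.22.

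Over all 14640 genes the differences were narrow. Their median was 0.00, their SD 0.188 and their quartiles -0.07 and 0.09, and 5% of genes lay at or above 0.28 and 5% at or below -0.25. The arrays correlated at 0.991 over these genes, which are not independent replicates. At 2-fold, 29 genes (0.198%) were higher and 25 (0.171%) lower with shRINF. At 1.5-fold, 121 (0.827%) were higher and 111 (0.758%) lower. The SD was 0.251 in UT7-5.3 and 0.101 in K562. In UT7-5.3, 4 of the same genes (0.0273%) were 2-fold or more higher and 5 (0.0342%) lower, and 157 (1.07%) and 71 (0.485%) at 1.5-fold. In K562 none passed 2-fold, and 4 (0.0273%) were higher and 4 (0.0273%) lower at 1.5-fold. Among 8279 named features under the floor in MV4-11 the SD was 0.138, none passed 2-fold and 0.278% passed 1.5-fold. A feature high on either array was kept, so that this rule itself limits wide differences under the floor. These values are therefore no measure of background noise. Where 286 genes had several kept features, the range between the differences of those features had a median of 0.065, and 9 ranges were over 0.5. These features share the same RNA and arrays, so that this is agreement within the pair and not replicate error. The floor matters at the ends: 9 of the 29 higher genes were under 5 with shcontrol, and 10 of the 25 lower genes were under 5 with shRINF, so that their differences rest on values near background.

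**Figure D1:**
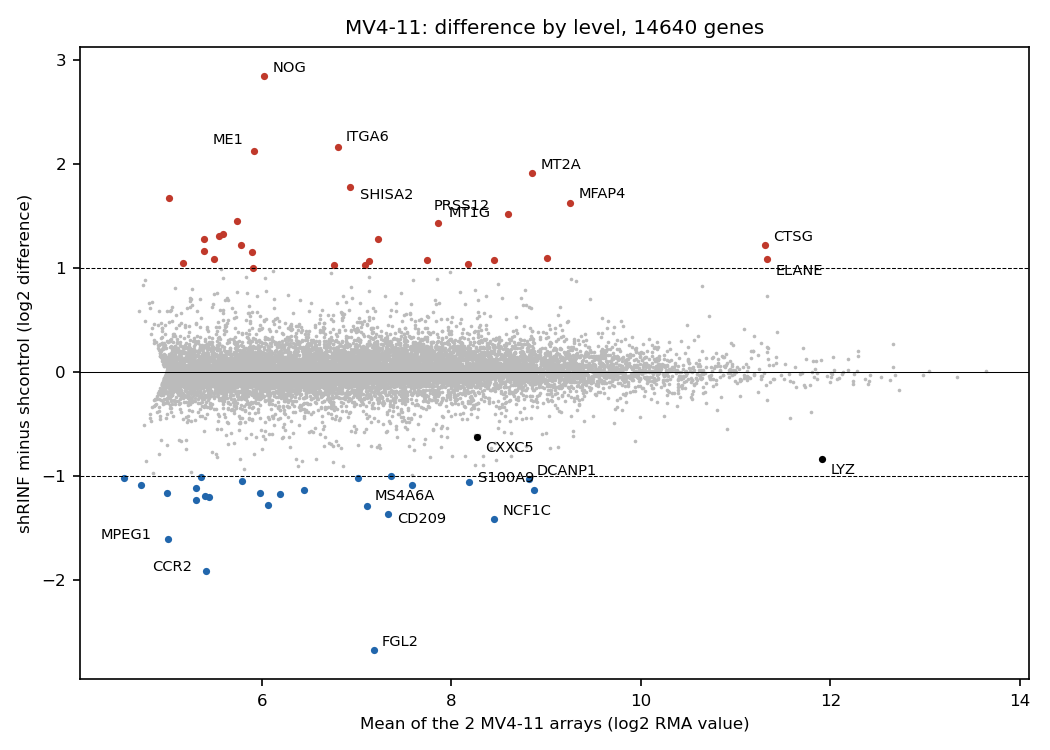
Difference (shRINF minus shcontrol, log2) against the mean log2 level of the 2 MV4-11 arrays, 1 point per gene for 14640 genes, with dashed lines at 2-fold. Red points are the 29 genes 2-fold or more higher and blue points the 25 genes 2-fold or more lower. CXXC5 and LYZ, in black, lie at -0.63 and -0.84.

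At the higher end, 4 of the 29 genes past 2-fold were on the list of metallothioneins and zinc regulators and 2 on that of primary granule proteins, both described below. Those lists held 11 and 14 of the 14640 kept genes. NOG, a secreted antagonist of bone morphogenetic proteins, had levels of 7.45 with shRINF and 4.60 with shcontrol, a difference of 2.85 or 7.21-fold. It was thus near background with shcontrol and well above it with shRINF. ITGA6, the alpha-6 integrin of laminin receptors, had levels of 7.88 and 5.72 (2.16), and ME1, the cytosolic malic enzyme that makes NADPH, 6.98 and 4.85 (2.13). The next were SHISA2, at 7.82 with shRINF and 6.04 with shcontrol (1.78), and NCKAP1, a subunit of the actin-regulating WAVE complex, at 5.85 and 4.18 (1.67). MFAP4, a microfibril protein of the extracellular matrix, had levels of 10.07 and 8.44 (1.63), and the serine protease PRSS12 9.36 and 7.84 (1.52). MFAP4 and PRSS12 were well above the floor on both arrays, whereas NCKAP1 and ME1 were under it with shcontrol. TGFB2, a TGF-beta ligand, had levels of 6.46 and 5.01 (1.45).

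Further genes of the 25 highest followed. CADM1, a cell adhesion molecule, was at 6.25 with shRINF and 4.92 with shcontrol (1.33), the receptor kinase ROS1 at 6.03 and 4.75 (1.28), and the chemokine CXCL10 at 5.97 and 4.81 (1.16). Each of these was under 5 with shcontrol. ATP6V1C2, a proton pump subunit, and CSRP2, a LIM protein, were under 5 with shcontrol too, with differences of 1.31 and 1.05. PLAG1, a zinc finger factor, was far above the floor, at 9.56 with shRINF and 8.46 with shcontrol (1.10), as were FAR2, a fatty acyl-CoA reductase, at 8.99 and 7.91 (1.08), and CD109, a surface glycoprotein that binds TGF-beta, at 8.28 and 7.20 (1.08). The remaining genes outside the metallothionein and granule groups were DZIP1 (1.22) and PTGR1 (1.15). At the edge of 2-fold, the glutamate transporter SLC1A3 lay just inside at 1.0 and the microRNA gene MIR1284 just outside at 0.99.

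At the lower end, 3 of the 25 genes were on the list of monocyte and macrophage genes (CCR2, CLEC12A and CX3CR1). That list held 32 of the 14640 kept genes. FGL2, a fibrinogen-like protein with prothrombinase activity made by macrophages, had levels of 5.84 with shRINF and 8.52 with shcontrol, a difference of -2.68 or 6.41-fold. CCR2, the receptor for the monocyte chemoattractant CCL2, had levels of 4.45 and 6.37 (-1.92), and MPEG1, the macrophage pore protein perforin-2, 4.20 and 5.81 (-1.61). With shRINF, CCR2 and MPEG1 were under the floor, whereas FGL2 was not. CD209, the lectin DC-SIGN of dendritic cells and macrophages, had levels of 6.65 and 8.02 (-1.37). MS4A6A, a membrane protein of monocytes, had 6.46 and 7.75 (-1.29), and DHRS9, a retinol dehydrogenase, 5.42 and 6.70 (-1.28). The chemokine receptor CCR1 was at 4.69 with shRINF and 5.92 with shcontrol (-1.23), and CLEC12A, an inhibitory lectin of myeloid cells, at 4.84 and 6.04 (-1.20).

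Further down the same end, IL7R, the interleukin-7 receptor alpha chain, had levels of 5.39 with shRINF and 6.56 with shcontrol (-1.17). AOAH, which removes acyl chains from bacterial lipopolysaccharide, had 4.41 and 5.58 (-1.17), and the medium-chain fatty acid receptor GPR84 4.74 and 5.86 (-1.12). Both lay under the floor with shRINF. F3, tissue factor, the trigger of coagulation, had levels of 7.04 and 8.13 (-1.09), and S100A9, a subunit of calprotectin, 7.66 and 8.72 (-1.06). The inflammatory mediators CXCL8 and IL1B had differences of -1.09 and -1.01, from levels of 4.18 and 4.85 with shRINF and 5.27 and 5.86 with shcontrol. EGR1, an immediate early transcription factor, had levels of 6.50 and 7.52 (-1.02). CX3CR1, the fractalkine receptor of monocytes, lay just inside 2-fold at 6.86 and 7.86 (-1.0), and the complement gene C3 just outside at 7.09 and 8.08 (-0.99). The other members of the 25 were NCF1C, NCF1B, DLGAP1-AS3, MIR221, ADAM28, MS4A4A, DCANP1 and IPCEF1, with differences between -1.42 and -1.02.

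**Figure D2:**
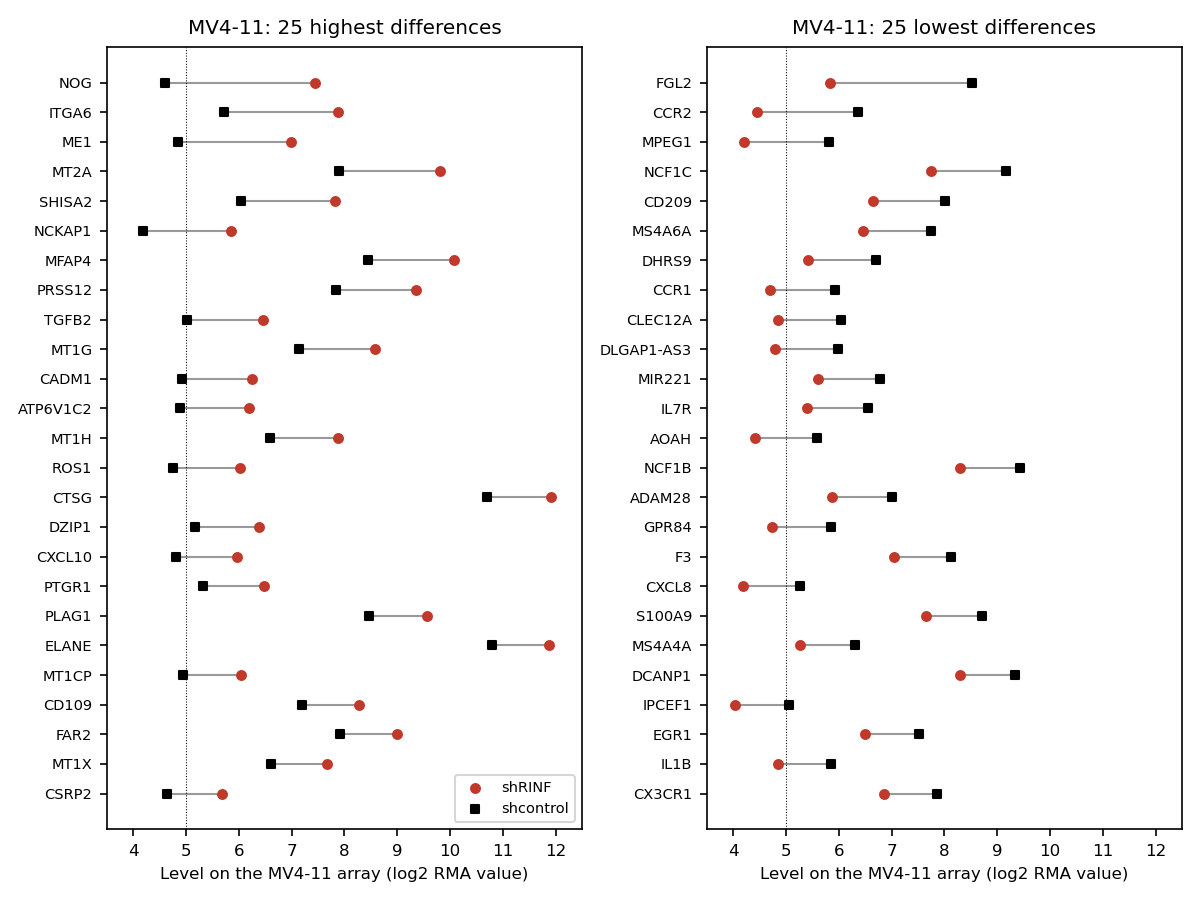
Levels (log2 RMA value, horizontal axis) of the 25 highest and the 25 lowest differences in MV4-11, with shRINF as red circles and shcontrol as black squares, 1 array each. The dotted line marks the floor of log2 5; NOG runs between 7.45 and 4.60, and FGL2 between 5.84 and 8.52.

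The primary granule proteins, made at the promyelocyte stage, differed among themselves, with members that were higher, alike and lower. Of 17 named genes 14 were kept, 5 were 1.5-fold or more higher and 1 lower (35.7% and 7.14%, beside 0.827% and 0.758% of all genes), and their median difference was 0.03, beside 0.00. CTSG, cathepsin G, had levels of 11.92 with shRINF and 10.70 with shcontrol (1.22), and ELANE, neutrophil elastase, 11.88 and 10.79 (1.09). MPO, myeloperoxidase, had 9.75 and 8.88 (0.87), the serine protease PRSS57 11.06 and 10.23 (0.83), and PRTN3, proteinase 3, 11.70 and 10.97 (0.73). These 5 were far above the floor on both arrays, and 4 of them are serine proteases. AZU1, azurocidin, an inactive relative of the same protease family whose gene neighbours PRTN3, had levels of 10.16 and 10.14 (0.02). CTSC, the peptidase that activates these proteases, had 9.93 and 9.90 (0.03), the eosinophil-type ribonuclease RNASE2 12.11 and 12.13 (-0.02), and the proteoglycan SRGN 12.64 and 12.81 (-0.17). SERPINB1, an inhibitor of elastase, cathepsin G and proteinase 3, was lower, at 8.05 with shRINF and 8.78 with shcontrol (-0.73), and BPI, a protein that binds bacterial lipopolysaccharide, had 5.40 and 5.89 (-0.49). In UT7-5.3 the 5 higher genes had differences between -0.50 and -0.13, and in K562 between -0.14 and 0.06.

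Proteins of the later, secondary and tertiary granules were not higher. Of 17 named genes 6 were kept, all 6 were below 0 (beside 47.5% of all genes), and none passed 1.5-fold, with a median difference of -0.22. The same 6 genes were mostly below 0 in the other lines too, 5 in UT7-5.3 (median -0.205) and 5 in K562 (-0.07). The peptidylarginine deiminase PADI4 had levels of 5.57 with shRINF and 6.01 with shcontrol (-0.44), the cathelicidin CAMP 5.32 and 5.63 (-0.31), and the gelatinase MMP9 5.94 and 6.22 (-0.28). Lactoferrin (LTF) and MMP8 were among the 11 under the floor.

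The upstream sequence of some of these genes is shown because related members differed together. The windows run from 250 bases before to 50 bases after the annotated start, from RefSeq on GRCh38.p14, written in the direction of the gene. Capitals mark the PU.1 core GAGGAA or the C/EBP core TTGCNNAA on either strand, the motifs of 2 families of factors that drive myeloid genes. The windows are those of CTSG (chr14:24576201-24576500, minus strand), PRTN3 (chr19:840749-841048, plus strand), FGL2 (chr7:77199770-77200069, minus strand) and CCR2 (chr3:46353861-46354160, plus strand).
CTSG: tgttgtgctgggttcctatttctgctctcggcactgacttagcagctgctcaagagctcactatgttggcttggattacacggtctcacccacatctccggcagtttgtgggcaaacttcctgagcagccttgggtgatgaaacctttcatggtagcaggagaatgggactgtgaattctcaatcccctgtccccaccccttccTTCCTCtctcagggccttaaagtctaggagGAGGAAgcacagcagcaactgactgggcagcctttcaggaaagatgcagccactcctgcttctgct
PRTN3: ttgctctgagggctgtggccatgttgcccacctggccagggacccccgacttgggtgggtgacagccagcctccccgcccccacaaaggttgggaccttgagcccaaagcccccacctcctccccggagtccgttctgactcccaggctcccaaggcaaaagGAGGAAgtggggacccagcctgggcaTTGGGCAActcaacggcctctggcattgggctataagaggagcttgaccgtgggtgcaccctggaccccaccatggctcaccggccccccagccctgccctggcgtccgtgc
FGL2: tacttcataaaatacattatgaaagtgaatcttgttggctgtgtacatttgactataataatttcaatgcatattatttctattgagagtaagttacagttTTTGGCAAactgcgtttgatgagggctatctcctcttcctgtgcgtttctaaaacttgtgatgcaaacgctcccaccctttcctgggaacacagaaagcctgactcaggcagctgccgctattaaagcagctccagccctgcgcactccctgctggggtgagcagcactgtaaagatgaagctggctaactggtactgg
CCR2: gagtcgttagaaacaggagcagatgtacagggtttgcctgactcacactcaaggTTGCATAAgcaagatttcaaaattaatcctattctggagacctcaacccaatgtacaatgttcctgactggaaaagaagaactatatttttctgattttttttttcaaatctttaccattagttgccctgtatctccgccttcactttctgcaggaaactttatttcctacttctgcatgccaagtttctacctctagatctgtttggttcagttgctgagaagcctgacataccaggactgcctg
CTSG, which was higher, held the PU.1 core at 2 places, and PRTN3, also higher, held each core at 1 place. FGL2 and CCR2, which were lower, each held the C/EBP core at 1 place. Other genes did not follow these. PRSS57, which was higher, and CX3CR1, which was lower, held neither core. AZU1, alike on both arrays, held the C/EBP core at 1 place, and MNDA, which was higher, held each core at 1 place. Over all 27305 promoters of the same length in the table, 27.6% held the PU.1 core and 10.6% the C/EBP core, so that a match of either kind is common. A match is a run of letters and not a bound site. The table had promoters for 72.4% of the 14640 genes. At 2-fold it had them for 20 higher genes (69.0%) and 17 lower genes (68.0%). The median number of CpG per window was 25 for all kept genes, 25.5 for the higher and 3 for the lower genes. The PU.1 core was in 8 of the 20 and 8 of the 17, beside 27.4% of all kept genes with a promoter. The C/EBP core was in 2 of the 20 and 5 of the 17, beside 7.0%. Both sets are small, and whether they differ from all kept genes was not tested.

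Of 47 named monocyte and macrophage genes 32 were kept, of which 24 were below 0 (beside 47.5% of all genes) and 8 above. The median difference was -0.20, and it was -0.37 with a floor of log2 6 and -0.09 with no floor. Past 1.5-fold, 10 were lower (31.2%, beside 0.758% of all genes) and 1 was higher. CCR2 and CLEC12A, at 4.45 and 4.84 with shRINF, were kept only through the shcontrol array. Of the others, LYZ, lysozyme, had levels of 11.49 with shRINF and 12.33 with shcontrol (-0.84), and the scavenger receptor CD36 5.35 and 6.19 (-0.84). The Fc receptor genes FCGR2A and FCGR2B had 7.20 and 7.91 (-0.71) and 5.12 and 5.91 (-0.79), and they are near-identical to each other and to FCGR2C (-0.87), so that their probes may share signal. ITGAM, the CD11b subunit of complement receptor 3, had levels of 6.66 and 7.36 (-0.70), and CSF1R, the receptor for M-CSF, 5.97 and 6.60 (-0.63). RNASE6, a ribonuclease of monocytes, had 5.89 and 6.53 (-0.64). The lower genes thus covered surface receptors and secreted effectors alike, over a wide span of levels. TYROBP, the signalling adaptor DAP12, was at 10.63 with shRINF and 11.18 with shcontrol (-0.55), and its relative FCER1G had a difference of -0.48.

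Not every gene of the list went that way. MNDA, the myeloid cell nuclear differentiation antigen, was the 1 higher gene, at 7.59 with shRINF and 6.68 with shcontrol (0.91). CD68, CD4 and AIF1 had differences of 0.09, 0.04 and 0.08, the cathepsins CTSB, CTSD and CTSS of -0.06, -0.07 and -0.11, and the complement genes C1QA, C1QB and C1QC of -0.03 to 0.03. Lysosomal genes as a group were close to 0, with 6 of 24 above 0 and 18 below (beside 49.0% and 47.5% of all genes). They ran between -0.25 for GLA and 0.19 for CTSH, with none past 1.5-fold. In UT7-5.3 and K562 the medians of the monocyte list were -0.07 and -0.02. In a bulk sample, fewer cells with monocytic expression and less RNA per cell cannot be told apart.

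**Figure D3:**
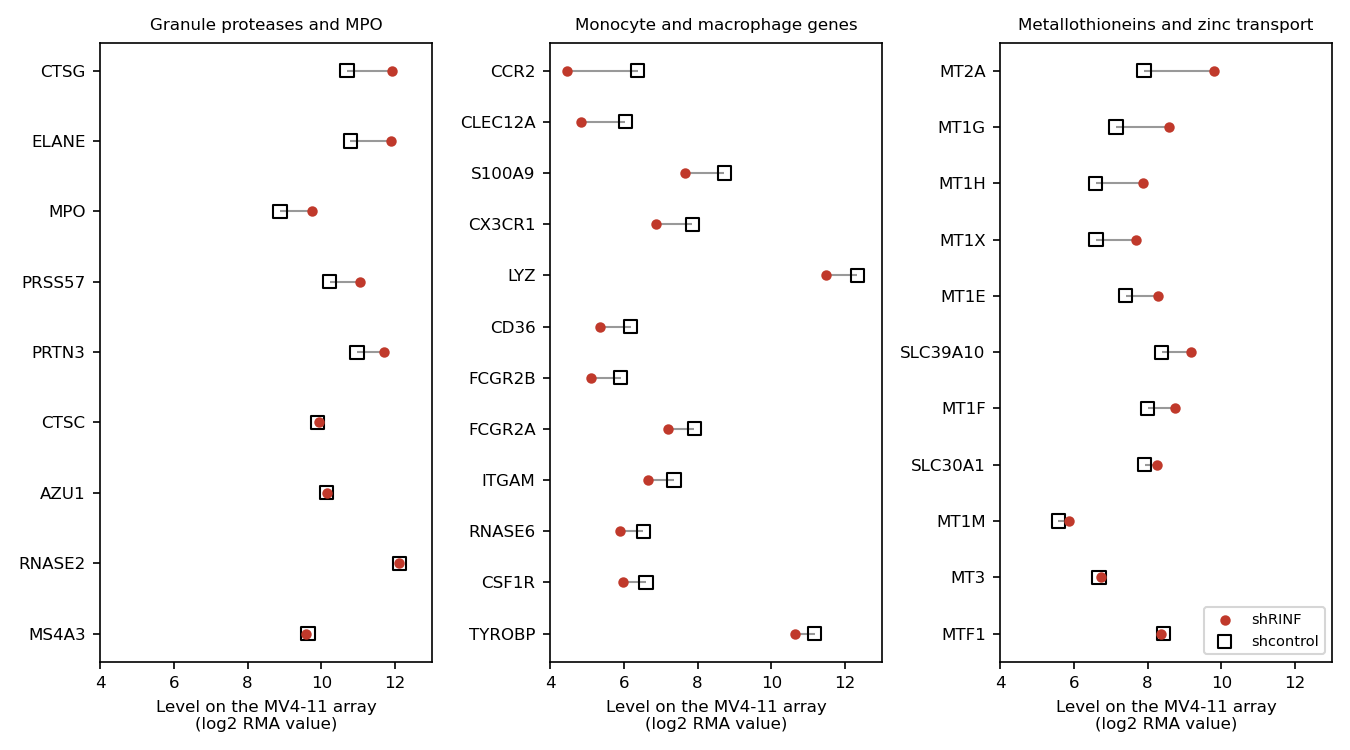
Levels (log2 RMA value, horizontal axis) in MV4-11 with shRINF (red circles) and shcontrol (open squares), 1 array each. In the granule panel CTSG, ELANE, MPO, PRSS57 and PRTN3 lie to the right of their controls while AZU1 and RNASE2 coincide with theirs; the monocyte panel shows lower genes chosen by their values, and S100A9 of the S100 list, not the 8 listed genes above 0 such as MNDA, and has CCR2 at 4.45 against 6.37; in the metal panel MT2A lies at 9.81 against 7.90.

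The S100 and NADPH oxidase genes of phagocytes were described next. Among 9 kept S100 genes, S100A9 (-1.06) and its partner S100A8, at 5.25 with shRINF and 5.80 with shcontrol (-0.55), were apart from the other 7, which had differences between -0.19 and 0.04. Of 5 oxidase genes, NCF1, the p47phox subunit, had levels of 7.64 and 8.27 (-0.63). Its near-identical pseudogenes NCF1C and NCF1B had 7.74 and 9.16 (-1.42) and 8.30 and 9.44 (-1.14), and probes may not separate the 3. NCF4, p40phox, had a difference of -0.27, and CYBB, the catalytic subunit, of -0.16. CYBA (-0.04) and the GTPase RAC2 (0.22) were close to or above 0.

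Antigen presentation genes were mostly below 0 in both classes. Of 11 kept MHC class II genes 10 were below 0 (beside 47.5% of all genes), with a median difference of -0.24, and 2 were 1.5-fold or more lower (18.2%, beside 0.758%). HLA-DRA, the alpha chain of HLA-DR, had levels of 4.35 with shRINF and 5.21 with shcontrol (-0.86), and HLA-DMA, part of the peptide exchange factor, 5.71 and 6.36 (-0.65). HLA-DRA was kept only through the shcontrol array, and with log2 5 required on both arrays 1 gene was lower past 1.5-fold. HLA-DRA had 7 kept features, with differences between -0.86 and -0.68, and HLA-DMA had 8, between -0.66 and -0.57. CD74, the class II chaperone, had levels of 7.16 and 7.68 (-0.52), while CIITA, the class II transactivator, had 5.74 and 5.88 (-0.14). Several HLA-DMA features had identical values (5.49 with shRINF and 6.07 with shcontrol), as did several of HLA-DRA (4.36 and 5.07). Features of the same HLA gene may thus share probes, and their agreement is not independent support. Of 13 class I genes 11 were below 0, with a median of -0.20. HLA-B had levels of 8.33 and 8.92 (-0.59), HLA-C 9.47 and 9.96 (-0.49) and HLA-E 8.52 and 8.97 (-0.45). The 6 HLA-B features had differences between -0.68 and -0.58. B2M, the shared light chain, had 10.73 and 10.85 (-0.12), and ERAP1, which trims peptides, was above 0 at 9.25 and 8.80 (0.45). In UT7-5.3, where HLA-DRA was at 10.61 with shcontrol, the class II median was -0.37, and in K562 it was -0.04.

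Cytokine and growth factor receptors lay below 0 in 19 of 24 kept genes (beside 47.5% of all genes), with a median difference of -0.22. Besides IL7R and CSF1R, no receptor passed 1.5-fold on the lower side, and KIT, the stem cell factor receptor, passed it on the higher side at 5.00 with shRINF and 4.41 with shcontrol (0.59), at the floor of the array. IFNGR1, a chain of the interferon-gamma receptor, had levels of 7.59 and 8.09 (-0.50), CSF3R, the G-CSF receptor, 6.89 and 7.33 (-0.44), and IL17RA 10.03 and 10.45 (-0.42). FLT3, the mutated receptor of this line, had a difference of -0.27. Of 17 cytokines, chemokines and NF-kappaB targets 13 were below 0, with CXCL8 and IL1B lower past 1.5-fold and CXCL10 higher. Each of these 3 was kept only through the array where it was higher, and with log2 5 required on both arrays the list had 0 higher and 0 lower past 1.5-fold. TNF had levels of 8.02 and 8.32 (-0.30), the inhibitor NFKBIA 8.57 and 8.57 (0.00), and the chemokine CCL5 6.97 and 6.42 (0.55). All 6 kept Toll-like receptor genes and adaptors were below 0, the lowest being TLR2 at 6.31 and 6.91 (-0.60).

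Interferon-stimulated genes were above 0 in 19 of 29 kept genes (beside 49.0% of all genes), with a median difference of 0.08. None was past 1.5-fold. The ubiquitin ligase HERC5 had levels of 7.03 with shRINF and 6.48 with shcontrol (0.55), and the RNA sensor OAS3 5.99 and 5.46 (0.53). GBP2, a guanylate-binding protein, was below 0 at 4.77 and 5.21 (-0.44), as was the RNA helicase RIGI at 6.95 and 7.21 (-0.26).

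Of 29 immediate early genes 2 passed 1.5-fold, both lower (6.9%, beside 0.758% of all genes). They were EGR1 and ZFP36, an mRNA decay factor, at 8.32 with shRINF and 9.05 with shcontrol (-0.73). FOS had levels of 5.29 and 5.84 (-0.55), whereas JUN had 5.56 and 5.29 (0.27) and MYC 9.50 and 9.35 (0.15). ERK feedback genes such as SPRY2 (-0.28) and DUSP6 (-0.25) were below 0 in 8 of 12 (beside 47.5% of all genes). The same genes were below 0 in 9 of 12 in UT7-5.3 and in 8 of 12 in K562. Of 19 myeloid transcription factors 1 passed, BCL6, at 4.83 and 5.57 (-0.74). BCL6 was under the floor with shRINF and was kept only through the shcontrol array. IRF8, a regulator of the monocyte lineage, had levels of 9.0 and 9.57 (-0.57), and NFE2 7.32 and 7.76 (-0.44). CEBPA, a regulator of granulocytic commitment, had 8.60 and 8.36 (0.24), and GFI1, a repressor of the monocyte programme, 8.15 and 7.79 (0.36). SPI1 (-0.08), FLI1 (-0.01) and MYB (0.10) lay near 0. Of 9 kept genes of the HOXA cluster, its cofactors and KMT2A partners, none passed. MEIS1, the cofactor of HOXA9, had levels of 7.76 and 7.67 (0.09), and KMT2A itself 8.77 and 8.46 (0.31). The HOXA genes of the list other than HOXA2 had no feature with their symbol alone and were not named.

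**Figure D4:**
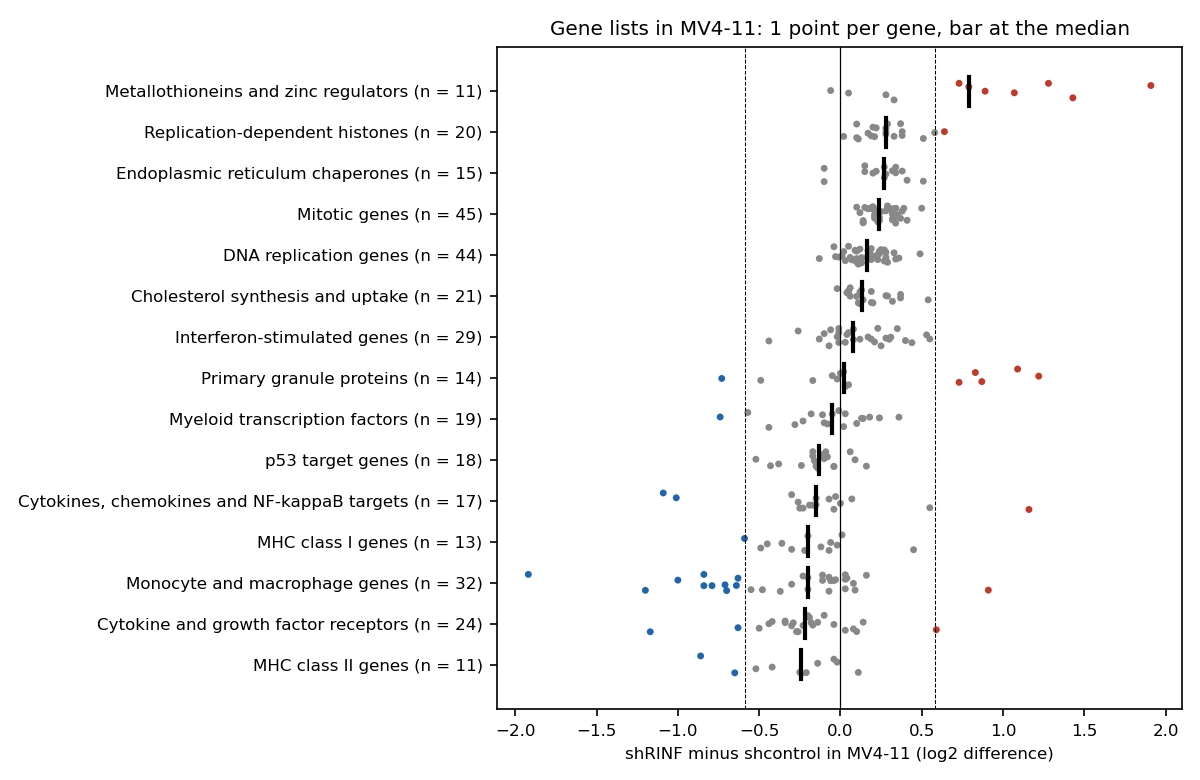
Differences (shRINF minus shcontrol, log2) in MV4-11 for 15 gene lists, 1 point per kept gene and a bar at each median, with dashed lines at 1.5-fold. Metallothioneins and zinc regulators have the highest median of the 15, at 0.79, and MHC class II genes the lowest, at -0.24; red and blue points are genes 1.5-fold or more higher and lower.

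Metallothioneins, small cysteine-rich proteins that bind zinc and copper, were higher as a family. Of 13 named genes of metallothioneins and zinc regulation 11 were kept, 7 of which were 1.5-fold or more higher (63.6%, beside 0.827% of all genes) and none lower. Their median difference was 0.79, beside -0.11 in UT7-5.3 and 0.16 in K562. MT2A had levels of 9.81 with shRINF and 7.90 with shcontrol (1.91), MT1G 8.57 and 7.14 (1.43), MT1H 7.87 and 6.59 (1.28) and MT1X 7.67 and 6.60 (1.07). MT1E had 8.29 and 7.40 (0.89) and MT1F 8.73 and 8.0 (0.73). All were above the floor on both arrays. MT1 genes are near-identical in sequence, and probes may share signal among them and with the pseudogene MT1CP (1.09). MT1M, at 5.86 and 5.58 (0.28), and MT3, a form found mainly in brain, at 6.73 and 6.68 (0.05), differed less. SLC39A10, a zinc importer, had levels of 9.17 and 8.38 (0.79), and SLC30A1, a zinc exporter, 8.25 and 7.92 (0.33). MTF1, the metal-sensing factor that drives metallothionein genes, had 8.37 and 8.43 (-0.06). In K562, MT1G alone of the 11 passed 1.5-fold, with a difference of 0.69.

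The promoters of MT2A, MT1H and MT1X are shown because these genes were higher together and share a known element. The windows are MT2A at chr16:56608334-56608633, MT1H at chr16:56669564-56669863 and MT1X at chr16:56682220-56682519, each on the plus strand of GRCh38.p14 (RefSeq). Capitals mark the core of the metal response element, TGCACNC or TGCGCNC, on either strand.
MT2A: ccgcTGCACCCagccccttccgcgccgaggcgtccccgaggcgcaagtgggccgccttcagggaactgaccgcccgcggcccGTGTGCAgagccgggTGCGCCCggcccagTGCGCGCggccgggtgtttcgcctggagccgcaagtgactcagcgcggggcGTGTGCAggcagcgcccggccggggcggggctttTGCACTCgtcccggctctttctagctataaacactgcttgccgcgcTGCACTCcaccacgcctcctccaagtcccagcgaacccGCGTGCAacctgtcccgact
MT1H: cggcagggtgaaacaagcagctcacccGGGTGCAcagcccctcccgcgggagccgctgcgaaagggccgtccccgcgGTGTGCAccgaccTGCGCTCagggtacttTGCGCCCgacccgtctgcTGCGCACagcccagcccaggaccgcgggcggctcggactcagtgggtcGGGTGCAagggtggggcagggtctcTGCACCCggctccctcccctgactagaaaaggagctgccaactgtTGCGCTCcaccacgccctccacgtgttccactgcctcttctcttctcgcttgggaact
MT1X: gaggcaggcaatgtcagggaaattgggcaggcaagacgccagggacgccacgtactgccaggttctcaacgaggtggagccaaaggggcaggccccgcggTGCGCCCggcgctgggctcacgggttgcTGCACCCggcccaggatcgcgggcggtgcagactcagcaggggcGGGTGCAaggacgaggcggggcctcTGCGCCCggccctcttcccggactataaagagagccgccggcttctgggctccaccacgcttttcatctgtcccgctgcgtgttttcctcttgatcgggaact
MT2A and MT1H each held the core at 8 places and MT1X at 4. Of all 27305 promoters of this length, 29.3% held it at least at 1 place, 0.593% at 4 or more and 0.022% (6 promoters) at 8 or more. The exporter SLC30A1 held it at 2 places, and the importer SLC39A10 at none.

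Cell cycle genes were shifted a little, and nearly all to the same side. All 45 mitotic genes were above 0, beside 49.0% of all genes, with a median difference of 0.24 and none past 1.5-fold. They ran between 0.10 for SPC25 and 0.50 for KIF18A. The kinesin KIF18A had levels of 7.38 with shRINF and 6.88 with shcontrol, the kinase cofactor CKS2 9.24 and 8.83 (0.41), and the survivin gene BIRC5 7.99 and 7.61 (0.38). MKI67, the proliferation antigen Ki-67, had 10.94 and 10.80 (0.14). In UT7-5.3 the mitotic median was also 0.24, with 36 of 45 above 0, and in K562 it was 0.01. Of 44 DNA replication genes 40 were above 0, with a median of 0.17. In UT7-5.3, 27 of the 44 were above 0 (median 0.105), and in K562 35 (median 0.06). The repressor E2F8 had levels of 9.90 and 9.41 (0.49), and the licensing factor MCM10 9.16 and 8.83 (0.33), while PCNA had 9.47 and 9.44 (0.03). All 20 kept replication-dependent histone genes were above 0, with a median of 0.28, and H2BC14 passed 1.5-fold at 9.07 and 8.43 (0.64). The same 20 were all above 0 in UT7-5.3, with a median of 0.3. In K562, 15 of the 20 were above 0, with a median of 0.105. Histone genes are alike in sequence, and 31 of the 59 listed had no feature of their own. Of 14 cyclins, CDKs and inhibitors 10 were above 0, with CCND2 at 9.93 and 9.50 (0.43). Whether a difference in the growth of the cultures moved with the other groups was not tested.

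Among metabolic and stress genes, ME1, SELENOP, ALDH1L2 and CTH passed 1.5-fold, all higher, besides CD36 of the fatty acid list, which was lower. Of 15 endoplasmic reticulum chaperones and folding enzymes 13 were above 0 (beside 49.0% of all genes), with a median difference of 0.27. PDIA4 had levels of 8.83 with shRINF and 8.32 with shcontrol (0.51), and HSPA5 (BiP) 11.29 and 10.88 (0.41). The median was -0.08 in UT7-5.3 and 0.04 in K562. Of 21 genes of cholesterol synthesis and uptake 20 were above 0, with a median of 0.13, and the sterol sensor INSIG1 had 8.56 and 8.02 (0.54). The desaturase SCD had levels of 10.99 and 10.45 (0.54). Among 20 ATF4 target genes, ALDH1L2, a mitochondrial folate enzyme, had 9.14 and 8.53 (0.61) and CTH, cystathionine gamma-lyase, 5.32 and 4.73 (0.59). These 2 passed 1.5-fold, while ATF4 itself had 9.64 and 9.58 (0.06). CTH was under the floor with shcontrol and was kept only through the shRINF array. ME1, under the floor with shcontrol at 4.85, stood alone among the 16 NRF2 targets of the list. The next highest of the 16 was ABCC1 at 0.17, and NQO1 was at -0.01. Genes outside that list, such as PTGR1 (1.15), were not read as NRF2 targets. The selenium carrier SELENOP had levels of 6.60 and 5.63 (0.97), apart from 13 other selenoprotein genes between -0.30 and 0.22. Oxidative phosphorylation subunits (65 genes, median 0.00) and glycolysis and hypoxia genes (26 genes, median 0.01) had no member past 1.5-fold. Of 56 cytosolic ribosomal protein genes 45 were below 0 (beside 47.5% of all genes), within -0.19 and 0.12 and with a median of -0.06.

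Apoptosis and p53 genes were not past 1.5-fold in any member. Of 18 p53 targets 15 were below 0 (beside 47.5% of all genes), with a median difference of -0.13. The phosphatase TIGAR had levels of 6.39 with shRINF and 6.91 with shcontrol (-0.52), CDKN1A 7.36 and 7.44 (-0.08), and MDM2 10.09 and 10.19 (-0.10). Of 17 BCL2 family genes 10 were below 0, with BCL2A1 at 4.59 and 5.06 (-0.47), BCL2 at 9.65 and 9.90 (-0.25) and MCL1 at 9.43 and 9.52 (-0.09).

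The pathways linked to CXXC5 in earlier work were read gene by gene. Among 26 TGF-beta and BMP genes the median difference was 0.00, with TGFB2 past 1.5-fold on the higher side and TGFBR1 on the lower. TGFBR1, the type I receptor, had levels of 8.97 with shRINF and 9.59 with shcontrol (-0.62). The type II receptor TGFBR2 had 7.33 and 7.40 (-0.07), and the target ID1 6.11 and 5.64 (0.47). Of 23 Wnt genes none passed 1.5-fold. The receptor FZD6 had levels of 6.24 and 5.66 (0.58), and the dishevelled genes DVL1 and DVL2 had differences of 0.02 and 0.16. Of 15 retinoid genes DHRS9 was the 1 past 1.5-fold, and RDH10, another retinol dehydrogenase, had levels of 7.29 and 6.81 (0.48). The receptors RARA and RXRA had differences of 0.02 and 0.24. Of 16 CXXC proteins and DNA methylation enzymes CXXC5 alone passed. TET1, a CXXC-domain dioxygenase, had 6.14 and 5.60 (0.54), and the methyltransferase DNMT3B 7.32 and 6.99 (0.33).

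Of 17 kept integrin genes 6 were above 0 and 11 below, and 1 passed 1.5-fold in each direction, ITGA6 and ITGAM. ITGA6 (2.16) and its partner ITGB1, at 9.48 with shRINF and 8.99 with shcontrol (0.49), were above 0. The leukocyte integrin subunits ITGAM (-0.70), ITGB7, at 5.48 and 6.04 (-0.56), ITGAL, at 9.16 and 9.63 (-0.47), and ITGAX, at 5.64 and 6.01 (-0.37), were below 0. ITGB2, the beta subunit that pairs with ITGAM, ITGAL and ITGAX, had 7.53 and 7.64 (-0.11).

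MicroRNA genes past 1.5-fold were few. Of 417 kept genes with microRNA symbols 2 were higher and 6 lower (0.48% and 1.44%, beside 0.827% and 0.758% of all genes), which is no result about microRNA genes as a class. The features measure RNA of the gene and not the mature strand. MIR221 had levels of 5.60 with shRINF and 6.78 with shcontrol (-1.18), MIR21 6.30 and 7.01 (-0.71), and MIR223, a microRNA of the myeloid lineage, 8.66 and 9.26 (-0.60). The mature sequences are shown because the seed (bases 2 to 8, in capitals) sets the targets, and the 3 genes share none. They are from RefSeq (GRCh38.p14), and miR-221-3p lies at chrX:45746180-45746202 on the minus strand, miR-21-5p at chr17:59841273-59841294 on the plus strand, and miR-223-3p at chrX:66018937-66018958 on the plus strand.
hsa-miR-221-3p: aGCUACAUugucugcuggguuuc
hsa-miR-21-5p: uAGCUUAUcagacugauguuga
hsa-miR-223-3p: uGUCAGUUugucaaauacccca
MIR3143 had levels of 8.69 with shRINF and 7.65 with shcontrol (1.04). In UT7-5.3 the differences of MIR221, MIR21 and MIR223 were -0.07, 0.25 and -0.03, and in K562 -0.22, -0.21 and 0.15. Small nucleolar RNAs were close to 0, with 1 of 168 past 1.5-fold, SNORD116-1 at 5.30 with shRINF and 5.99 with shcontrol (-0.69).

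Neighbouring genes were compared in RefSeq order. Among the 14637 kept genes placed on RefSeq, 232 were past 1.5-fold, 18 pairs of consecutive genes were both past it, and in all 18 both members went the same way, 10 pairs higher and 8 lower. Genes that were not kept were skipped, so that consecutive genes need not be adjacent. How often consecutive genes share a direction over all kept genes was not counted. A run of 5 MS4A genes was lower, with MS4A6A at -1.29, MS4A4E at -0.84, MS4A4A at -1.05, MS4A7 at -0.62 and MS4A14 at -0.64. CCR1 and CCR2, and LILRA2 and LILRA1, were lower as consecutive kept genes. On the higher side were the metallothionein run of MT1CP, MT1F, MT1G, MT1H and MT1X, and PRTN3 with ELANE. Such families are alike in sequence, and 2 of the 18 pairs overlap in the annotation (DTX4 with MPEG1, and DCANP1 with TIFAB). For those pairs shared probes and shared change cannot be told apart. Pairs outside such families and without overlap were SPART-AS1 with CCNA1, POGLUT2 with BIVM, SELENOP with ANXA2R, PLAG1 with CHCHD7, and SMIM10 with RTL8B, all higher.

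The genes furthest apart in MV4-11 showed little difference in the other lines. Of the 29 higher genes 13 had the same direction in UT7-5.3 and 13 in K562, and their median differences were 1.22 in MV4-11, -0.02 in UT7-5.3 and -0.01 in K562. Only MT1G was past 1.5-fold in the same direction elsewhere, in K562. Of the 25 lower genes 13 and 14 had the same direction, none past 1.5-fold, and the medians were -1.17 in MV4-11, -0.01 in UT7-5.3 and -0.02 in K562. The genes were chosen for their MV4-11 values, so that values nearer 0 in other lines are to be read with that in mind. Past 1.5-fold, 1.07% of all 14640 genes were higher and 0.485% lower in UT7-5.3, and 0.0273% each way in K562. At such shares few or none of 29 or 25 genes would pass, so that the near absence is no result about these genes. The share of all genes with the same direction in 2 lines was not counted. Many were not measurable there: 18 and 15 of the 29, and 11 and 6 of the 25, reached log2 5 in UT7-5.3 and K562. CTSG, for one, was at 10.70 in MV4-11, 5.84 in UT7-5.3 and 5.50 in K562 with shcontrol.

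Some of the lower genes were well expressed elsewhere and had small differences there. IL1B, at 9.68 in UT7-5.3 with shcontrol, had a difference of 0.11 in that line. MS4A4A was at 8.96 there, with a difference of 0.18, and ME1, of the higher genes, was at 9.95 with 0.29. LYZ, at 9.84 in UT7-5.3 and 9.36 in K562 with shcontrol, had differences of 0.26 and 0.04. Of all 14640 genes, 1.07% were 1.5-fold or more higher and 0.485% lower in UT7-5.3. Of the genes past 1.5-fold in MV4-11, 3 of 121 higher and 2 of 111 lower went the same way there, 5 in all. They were DYNLRB1, a dynein light chain (0.88 in MV4-11, 0.87 in UT7-5.3, 0.47 in K562), MARCKS (0.76, 0.86 and 0.16), SELENOP (0.97, 0.60 and 0.15), CXXC5 and the pseudogene HLA-DRB6 (-0.93, -0.83 and -0.08). Across the 14640 genes the differences of MV4-11 and UT7-5.3 had a Pearson correlation of 0.101 and a Spearman correlation of 0.134, and those of MV4-11 and K562 0.026 and 0.027. These are descriptions across genes, most of which lie near 0. Each line had its own control array.

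**Figure D5:**
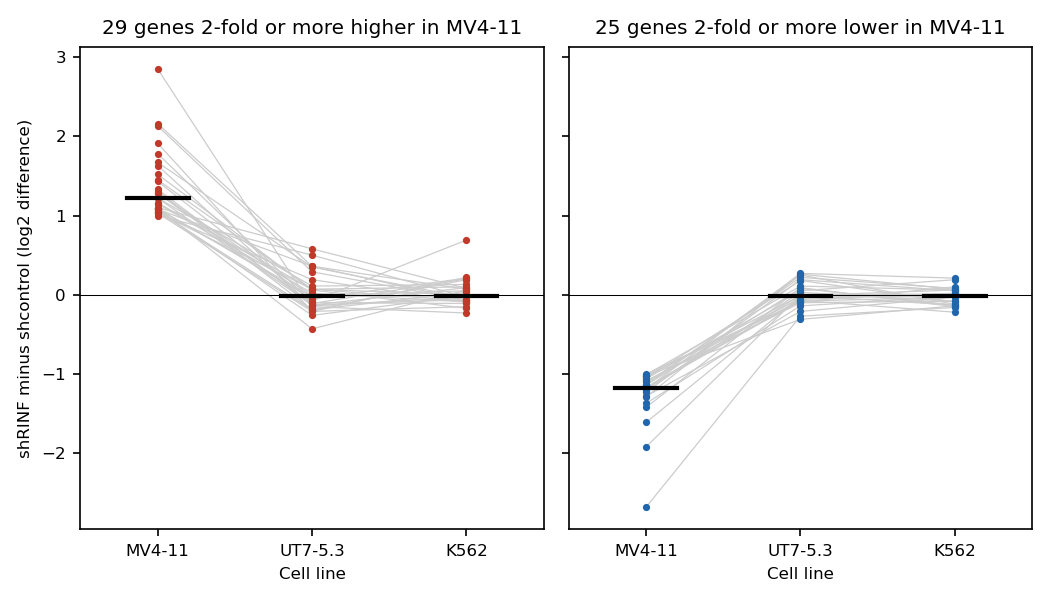
Differences (shRINF minus shcontrol, log2, vertical axis) in MV4-11, UT7-5.3 and K562 for the 29 genes 2-fold or more higher (left) and the 25 genes 2-fold or more lower (right) in MV4-11, 1 line per gene and a bar at each median. The medians are 1.22, -0.02 and -0.01 on the left and -1.17, -0.01 and -0.02 on the right; the point at 0.69 in K562 is MT1G.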

How the data were processed

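Total RNA was measured on 6 whole-transcript arrays, per the labels' protocols. The authors deposited 1 log2 value per feature and array. Per the submitters' processing notes these came from RMA, run with the Affymetrix Expression Console. Its version and the genome build were not given in the sources used here. The log base was taken as 2 from the method and the range of 1.63 to 13.89. Values were used as deposited.

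Features were named from the platform annotation, with 23777 of 23781 single symbols matched to RefSeq (GRCh38.p14). Named features at log2 5 or more on either MV4-11 array were kept, and the feature of highest mean stood for a gene. Differences, ranks, medians and counts past 2-fold and 1.5-fold were computed with Python 3.11.15 and pandas 2.3.3, and figures drawn with matplotlib 3.10.9. With 1 array a side no test was made. The procedure was tested on simulated data.

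The genes named are CXXC5, the 25 highest and 25 lowest, and in each of 50 gene lists up to 6 members of largest difference, or more in small families. SMAD7, MIR3143, MARCKS, genes at thresholds, neighbours and members named for their role were added after their values were seen. The members and lists were chosen with earlier results of these data known. The number of arrays limits the precision. The alternatives covered the floor, the scaling, the feature chosen, the unit counted and the fold.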

Additional observations from a re-analysis of the deposited data

Results flagged for a closer look

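RNASE6 went past 1.5-fold in opposite directions in different lines, with a difference of -0.64 in MV4-11 (levels of 5.89 with shRINF and 6.53 with shcontrol) and of 0.69 in UT7-5.3 (5.09 and 4.40). In UT7-5.3 its shcontrol level was under the floor of log2 5. The difference between the lines was not tested.

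Features without a single gene symbol, which entered no comparison above, also held wide differences. Of 15683 such features at log2 5 or more in MV4-11, 47 were 2-fold or more higher and 27 lower with shRINF (0.472% in all). The 47 held 31 distinct sets of values, since some features repeat others. The highest, TC02000729.hg.1, had levels of 7.62 with shRINF and 4.67 with shcontrol, a difference of 2.95, with 2.63 in UT7-5.3 and -0.21 in K562. The lowest, TC07003035.hg.1, had levels of 4.64 and 6.86, a difference of -2.22, with 0.13 in UT7-5.3 and 0.09 in K562. The annotation used here gives neither feature a gene.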

How the results depend on the processing

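No paired analysis was possible because each shRNA had 1 array in MV4-11, and for the same reason no array could be left out. The alternatives were log2 5 on both arrays, a floor of log2 4 or 6, no floor, centring on the median, quantile normalization of the 2 arrays, removal of a lowess trend, the median over the features of a gene, counting all named features, and 1.5-fold in place of 2-fold. Past 1.5-fold, 121 genes were higher and 111 lower. With log2 5 on both arrays the count of genes 2-fold lower was 15, against 25. The median of the monocyte and macrophage genes was -0.37 with a floor of log2 6 and -0.09 with no floor. Histone genes past 1.5-fold numbered 2, against 1, with a floor of log2 4, with no floor, after quantile normalization and after lowess. MHC class II genes lower past 1.5-fold numbered 1, against 2, with log2 5 on both arrays, a floor of log2 6 and the median over features. With log2 5 on both arrays and with a floor of log2 6, cytokine receptors had 0 higher, and cytokines, chemokines and NF-kappaB targets had 0 higher and 0 lower, since these genes lay near the floor. The other 218 values of counts and lists kept within their limits. Of 1750 values for 232 genes none reversed, and CYP1B1 moved to 0.52 over its 2 features, against 0.90.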

Other observations

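Among the genes past 1.5-fold that belong to none of the groups above, and that were named after their values were seen, several encode ligands, receptors and membrane proteins. On the higher side, the planar polarity protein VANGL1 had levels of 8.46 with shRINF and 7.50 with shcontrol (difference 0.96), the growth factor FGF9 6.04 and 5.14 (0.90), the receptor TNFRSF19 6.29 and 5.38 (0.91), and the receptor kinase AXL 7.48 and 6.87 (0.61). The cyclin CCNA1 had 7.20 and 6.25 (0.95). On the lower side, the chemokine receptor CXCR4 had levels of 8.68 and 9.41 (-0.73), the nucleotide hydrolase SAMHD1 9.60 and 10.27 (-0.67), the leukotriene cofactor ALOX5AP 7.88 and 8.78 (-0.90), and TXNIP, the inhibitor of thioredoxin, 8.05 and 8.90 (-0.85). In UT7-5.3 these 9 genes had differences between -0.16 and 0.27, and in K562 between -0.17 and 0.31.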
